A study of Mus musculus with 8 samples.

Results

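Cluster 8 of a single-nucleus RNA data set of mouse liver held the nuclei of the B lineage. Its members are all nuclei that the authors' clustering placed in that cluster, 367 of 17485 nuclei in 13 clusters: 165 of 9204 in the MKO pool and 202 of 8281 in the control pool. The deposited table gives mean values per cluster and genotype and not single nuclei. The numbers of nuclei were therefore read from the lowest values, which are whole fractions of the number of nuclei and of each nucleus's molecule total.

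The design asks what a diet model of metabolic dysfunction-associated steatohepatitis (MASH) looks like when myeloid cells lose Tgfbr1, the signalling receptor for TGF-beta. MKO mice carried floxed Tgfbr1 alleles (flox/flox) with LysMcre, a Cre recombinase driven by the lysozyme 2 locus, which is active in macrophages, monocytes and neutrophils. Control mice carried the same floxed alleles without Cre, and both genotypes were fed a MASH diet for 30 weeks. Nuclei were isolated from frozen tissue, sorted by their propidium iodide stain, and 3 livers were pooled into 1 library per genotype. Whole liver RNA of 3 MKO and 3 control mice was sequenced separately as bulk libraries. With 1 pool per genotype the nuclei allow no test between genotypes, and the spread between mice is known from the bulk libraries alone, where nothing in the labels ties a library to a pooled liver.

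B cells arise from progenitors in which the transcription factors Ebf1 and Pax5 switch on a shared programme. Its products include the antigen receptor, made of an immunoglobulin with the signalling chains Cd79a and Cd79b, and the coreceptor chain Cr2. Mature cells that have not met antigen carry IgM and IgD together. Activated cells can become plasma cells, which lower Pax5, raise Xbp1 and Prdm1, and secrete antibody, with Jchain joining the units of IgA and IgM. In steatohepatitis, B cells gather in the liver beside T cells and macrophages.

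The markers of the B lineage were found where the label puts them. Values are molecules per 10000 molecules of a nucleus, averaged over the nuclei of a cluster in 1 pool. Ebf1 (chr11:44617317-45008091 of GRCm38, the mm10 build), the factor that specifies the lineage, stood at 64.1 in the MKO pool and 71.6 in the control pool, against at most 3.05 in any of the 24 columns of the other 12 clusters. Pax5 (chr4:44524757-44710487), which maintains B cell identity, stood at 9.03 in the MKO pool and 11.8 in the control pool, and at most 0.0675 elsewhere. Bank1 (chr3:136053363-136326066), a scaffold of receptor signalling, stood at 46.7 in the MKO pool and 51.7 in the control pool, and at most 6.48 elsewhere. Cd79a (chr7:24897381-24902197) stood at 6.55 in the MKO pool and 4.33 in the control pool. Ighd (chr12:113406604-113416324), the constant gene of IgD, stood at 8.16 in the MKO pool and 9.18 in the control pool. All 12 B cell markers examined had their highest value in cluster 8 in both pools, with the lower pool at least 4.01 times the highest value elsewhere.

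Markers of T cells, macrophages and mesothelial cells were near 0 in cluster 8. The 15 T and NK cell markers summed to 0.569 in the MKO pool and 0.806 in the control pool, with 10 of them at 0 in the MKO pool and 7 in the control pool. The 14 macrophage markers summed to 3.95 in the MKO pool and 1.66 in the control pool, and all 5 mesothelial markers were at 0 in both. Dividing cells were hardly present: the 10 cell division genes summed to 0.698 in the MKO pool and 0.288 in the control pool. The 11 plasmacytoid dendritic markers summed to 13.5 in the MKO pool and 12.3 in the control pool, with 4 of them at 0 in each, and 3 of them, Tcf4, Ly6d and Irf8, are also genes of B cells. The 9 conventional dendritic markers summed to 6.96 in the MKO pool and 8.56 in the control pool, of which Wdfy4 gave 6.30 in the MKO pool and 8.32 in the control pool. The 8 endothelial markers summed to 8.57 in the MKO pool and 9.15 in the control pool, mostly from Pecam1. Hepatocyte RNA was more abundant, with 12 markers that summed to 149 in the MKO pool and 106 in the control pool, led by Alb at 69.8 in the MKO pool and 48.4 in the control pool. The same markers summed to between 66.5 and 231 in every cluster of the MKO pool and to between 40.2 and 218 in every cluster of the control pool, so that these molecules were found in all clusters.

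By the lower of the cluster 8 values over the highest value in any other cluster, with 0.175 added to each, the 20 leading genes of cluster 8 included Pax5, Gm47782, Ighd, Ebf1, Cd79a, Igkc, Gm43388, Fcer2a, Ms4a1, Pou2af1, H2-Ob, Blk, Cr2, Cacna1i, 2010309G21Rik, Cd79b, Cd22, H2-DMb2 and Iglc2. They are given as a description of the cluster, since the same nuclei were clustered on their expression. The list held the antigen receptor itself (Ighd, Igkc, Iglc2, Cd79a, Cd79b), its coreceptor and inhibitor (Cr2, Cd22), the receptor kinase Blk, the coactivator Pou2af1, the IgE receptor Fcer2a, the CD20 gene Ms4a1 and the MHC class II chaperone subunits H2-Ob and H2-DMb2. Of the noncoding members, 2010309G21Rik (chr16:19051367-19106749) spans the lambda constant genes Iglc1 and Iglc3, and Gm43388 (chr16:19212660-19236776) lies beside Iglc2. Gm47782 (chr14:15697956-15911315), a long intergenic RNA, stood at 8.16 in the MKO pool and 8.0 in the control pool, against at most 0.047 elsewhere.

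**Figure D1:**
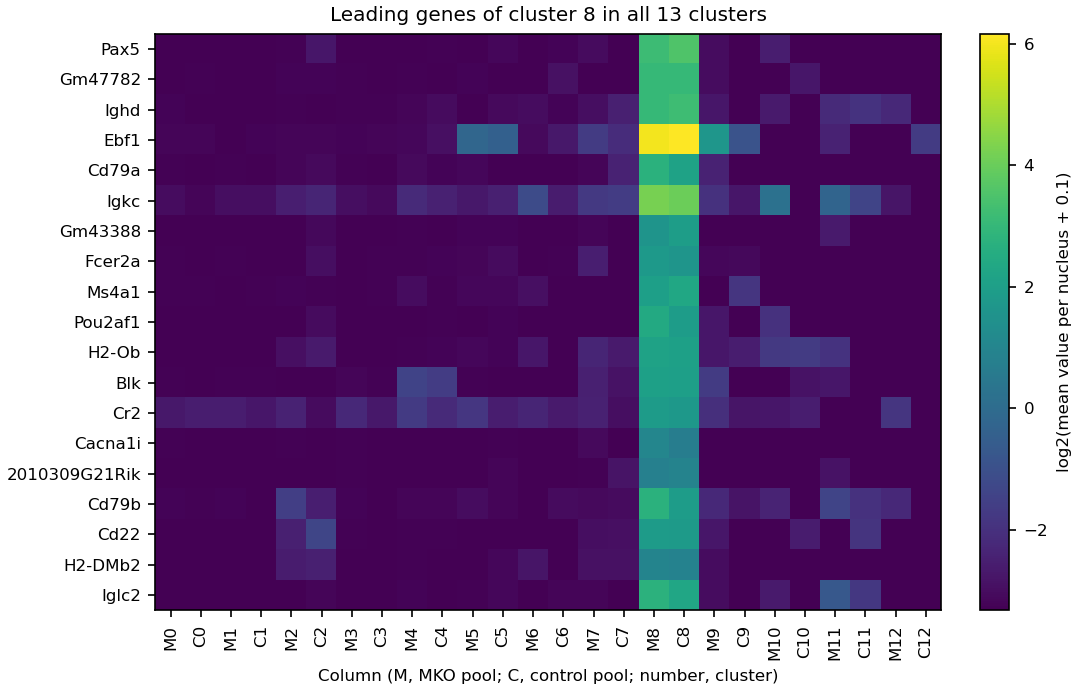
Heat map of log2(mean value per nucleus + 0.1) for the leading genes (rows) in the 13 clusters of the MKO pool (M) and the control pool (C, columns). Cluster 8 stands out in both pools, with Ebf1 at 64.1 in the MKO pool and 71.6 in the control pool, against at most 3.05 in the other clusters.

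Promoter sequence was at hand for 10 of the 20 leading genes. The 250 bases before the start of Cd22 and Cd79a (RefSeq, GRCm38.p6) are shown because Cd22 was the gene of the 10 with the palindrome that Ebf1 recognises (TCCC, any 2 bases, GGGA) and because Cd79a is a known target of Ebf1. Capitals mark that palindrome and the E box CAGGTG, read as CACCTG on the other strand, which Tcf3 recognises. The Cd22 stretch is chr7:30879029-30879278 on the minus strand and the Cd79a stretch chr7:24897247-24897496 on the plus strand, each written 5′ to 3′. The starts are those of RefSeq, and the GENCODE gene bounds differ. By GENCODE the Cd22 stretch lies wholly within the gene (chr7:30865402-30880342). The Cd79a stretch runs past the GENCODE start of that gene at 24897381.
Cd22: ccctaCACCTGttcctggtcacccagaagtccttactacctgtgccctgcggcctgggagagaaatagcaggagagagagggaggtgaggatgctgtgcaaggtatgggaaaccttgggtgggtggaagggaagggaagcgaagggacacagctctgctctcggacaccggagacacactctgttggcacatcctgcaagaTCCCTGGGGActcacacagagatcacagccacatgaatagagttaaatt
Cd79a: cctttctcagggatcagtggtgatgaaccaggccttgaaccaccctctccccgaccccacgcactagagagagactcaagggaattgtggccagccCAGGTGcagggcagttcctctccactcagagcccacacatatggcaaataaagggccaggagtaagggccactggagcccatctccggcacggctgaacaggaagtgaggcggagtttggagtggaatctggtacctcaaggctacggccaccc
The palindrome lay in 1 of the 10 promoters and in 0.780% of all 32817 promoters of the same length. The E box lay in 4 of the 10 (Cd79a, Cr2, Cacna1i and Cd22) and in 17.2% of all promoters. The octamer ATGCAAAT, read by the Oct factors that Pou2af1 assists, lay in none of the 10 and in 1.60% of all promoters. The searches covered both strands and describe letters in these windows only.

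Cluster 8 made up a smaller share of the nuclei in the MKO pool. It held 1.79% of the MKO pool (exact 95% interval 1.53 to 2.08%) and 2.44% of the control pool (2.12 to 2.79%). The intervals cover counting error only, and not the difference between mice or sorts. The pools differed in make-up around it: macrophage cluster 2 held 1676 MKO and 685 control nuclei, and T and NK cluster 7 held 415 MKO and 237 control nuclei. Of the nuclei in the immune clusters 2, 7, 8 and 11, cluster 8 held 7.18% in the MKO pool (6.16 to 8.31%) and 17.4% in the control pool (15.3 to 19.7%). Outside clusters 0, 1 and 3, where hepatocyte markers were highest, it held 3.64% in the MKO pool (3.11 to 4.23%) and 5.22% in the control pool (4.54 to 5.97%). For each nucleus of cluster 7 there were 0.398 nuclei of cluster 8 in the MKO pool and 0.852 in the control pool. None of the 20 leading genes differed by 2-fold between the pools in cluster 8. This is no result about them, since 96.2% of the 1429 genes compared below lay within 2-fold. The ranking by the lower cluster 8 value also favours genes alike in both pools.

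**Figure D2:**
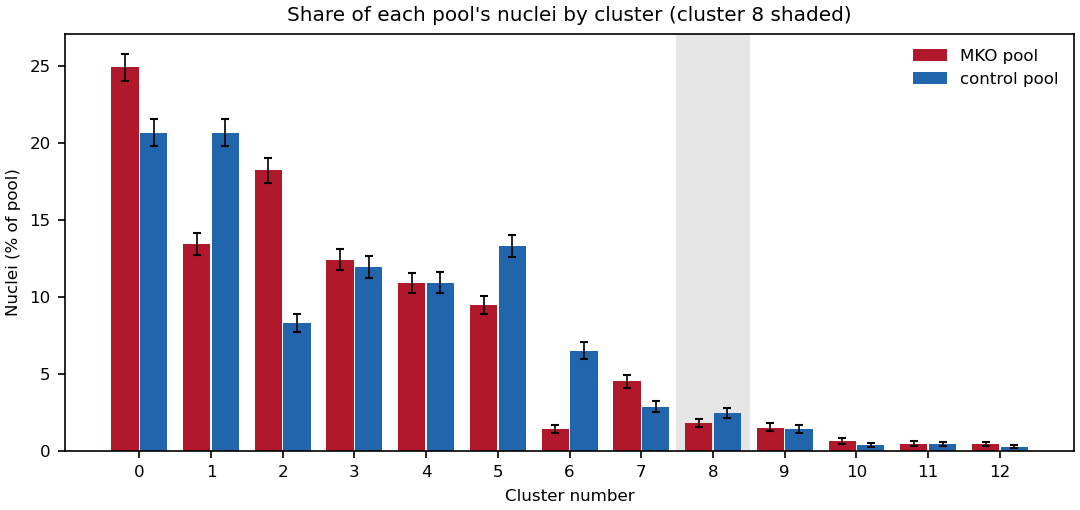
Share of each pool's nuclei (percent) in clusters 0 to 12, MKO pool in red and control pool in blue, with exact 95% binomial intervals for counting error as bars. Cluster 8 (shaded) held 1.79% of the MKO pool and 2.44% of the control pool, and macrophage cluster 2 held 18.2% of the MKO pool and 8.27% of the control pool.

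Nuclei of cluster 8 were shallow. Among nuclei whose molecule totals could be read, 155 of 165 in the MKO pool and 180 of 202 in the control pool, the median total was 1513 molecules in the MKO pool and 1314.5 in the control pool. A value of 1 therefore stood for about 25 molecules in all in the MKO pool and 26.6 in the control pool. Ratios between the pools were read for the 1429 genes with a value of at least 1.75 in either pool (the 90th percentile), which is about 43.6 molecules in the MKO pool and 46.4 in the control pool. They are log2 of MKO over control after adding 0.175 to each value. Intervals on single values or ratios are approximate, cover counting error only and treat molecules as independent.

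Within cluster 8 the pools were alike for most genes. Of the 1429 genes, 96.2% lay within 2-fold, 24 (1.68%) were at least 2-fold higher in the MKO pool and 30 (2.10%) at least 2-fold lower, and the median log2 ratio was -0.06. Across 4461 genes, the log2 values of the MKO and control columns of cluster 8 had a Pearson correlation of 0.949. In the MKO pool, cluster 8 resembled T and NK cluster 7 most (0.781), followed by plasmacytoid dendritic cluster 11 (0.725) and macrophage cluster 2 (0.654). In the control pool the same values were 0.775, 0.719 and 0.644. These correlations are across genes, which are not independent, and the columns of a pool share its library.

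**Figure D3:**
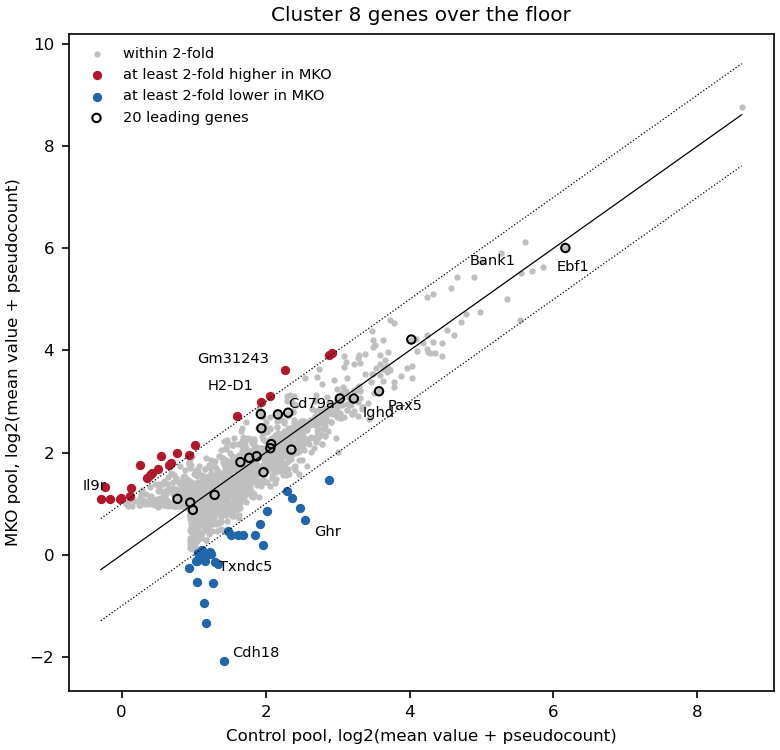
Log2(mean value + 0.175) of the 1429 genes over the floor in cluster 8, MKO pool on the vertical axis and control pool on the horizontal axis; the solid line marks equality and the dotted lines 2-fold. The 20 leading genes (circles) lie inside the dotted lines, 24 genes (red) lie above and 30 (blue) below. Of all 1429 genes, 96.2% lie inside. The leading genes were ranked by their lower value, which favours genes alike in both pools.

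The B cell transcription factors over the floor were within 2-fold between the pools, as most genes of cluster 8 were. Of 16 listed, 11 were over the floor, none was past 2-fold, and 2 were higher in the MKO pool. Their median log2 ratio was -0.23, with values between -0.38 and 0.59. Of all 1429 genes, 96.2% lay within 2-fold, so 0 of 11 is no result about this list. Bach2, which holds back plasma cell differentiation, stood at 31.9 in the MKO pool and 40.6 in the control pool. Ikzf3, a regulator of B cell activation, stood at 11.8 in the MKO pool and 12.7 in the control pool. Mef2c stood at 17.5 in the MKO pool and 18.0 in the control pool. Pou2af1 (5.39 in the MKO pool, 3.67 in the control pool) and Klf2, a factor of resting and circulating lymphocytes (2.95 in the MKO pool, 1.90 in the control pool), were the pair with higher values in the MKO pool. Lef1 and Sox4, which mark B cell precursors, were at or near 0, with Lef1 at 0.107 in the MKO pool and 0 in the control pool and Sox4 at 0 in the MKO pool and 0.133 in the control pool.

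The antigen receptor chains ran slightly the other way. Of 16 receptor and coreceptor genes, 11 were over the floor, 8 were higher in the MKO pool, and the median log2 ratio was 0.19. None was past 2-fold, near the share of all 1429 genes, of which 96.2% lay within 2-fold. Cd79b had the highest ratio, with 6.58 in the MKO pool and 3.64 in the control pool, a log2 ratio of 0.82 (counting interval 0.48 to 1.23). Cd79a had a log2 ratio of 0.58 (0.24 to 0.95). Igkc, the kappa constant gene, stood at 18.4 in the MKO pool and 16.1 in the control pool. The 3 lambda constant genes, Iglc1, Iglc2 and Iglc3, summed to 13.1 in the MKO pool and 8.90 in the control pool, which was 41.6% of light chain constant molecules in the MKO pool and 35.6% in the control pool. Iglc2 and Iglc3 are near-identical copies, so the split between them is uncertain. Ighm stood at 12.1 in the MKO pool and 13.1 in the control pool, and Ighd was lower, at 8.16 in the MKO pool and 9.18 in the control pool. The coreceptor gene Cr2 (3.55 in the MKO pool, 3.24 in the control pool) and the inhibitory receptor Cd22 (3.63 in the MKO pool, 3.50 in the control pool) were close between the pools. Cd5, which marks B1a cells and T cells, was at 0 in both.

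Signalling genes below the receptor lay close between the pools. Of 18 listed, 15 were over the floor, none was past 2-fold, and ratios ran from -0.41 to 0.16 with a median of -0.10. The tyrosine kinases Syk (13.9 in the MKO pool, 12.5 in the control pool), Lyn (15.8 in the MKO pool, 17 in the control pool), Btk (3.42 in the MKO pool, 4.23 in the control pool) and Blk (4.07 in the MKO pool, 4.01 in the control pool) and the adaptor Blnk (7.41 in the MKO pool, 7.18 in the control pool) belong to this list. Prkcb, the protein kinase C that links the receptor to NF-kappaB, stood at 15.3 in the MKO pool and 19.4 in the control pool. Among 18 surface and survival genes, 11 were over the floor, none past 2-fold, again near the share of all genes, with a median log2 ratio of -0.02. Fcmr, the receptor for the Fc part of IgM, had the highest ratio of that list, with 2.70 in the MKO pool and 1.39 in the control pool, a log2 ratio of 0.88 (0.36 to 1.58). Ms4a1 stood at 3.99 in the MKO pool and 4.95 in the control pool, and Cd55, an inhibitor of complement, at 7.08 in the MKO pool and 9.96 in the control pool.

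The follicular marker Fcer2a was present in both pools, and germinal centre genes were under the floor. Fcer2a, a surface marker of follicular B cells, stood at 3.34 in the MKO pool and 2.96 in the control pool. Of 10 germinal centre genes, 8 were in the table and none reached the floor, with a sum of 2.43 in the MKO pool and 1.40 in the control pool. Of 18 activation genes, Nfkb1 and Rel were over the floor and the immediate early genes Egr1, Fos and Nr4a1 were at most 0.247 in both pools. Among 14 homing genes, 6 were over the floor with a median log2 ratio of 0.37. Gpr183, which guides B cells to the edge of the follicle, stood at 5.40 in the MKO pool and 3.02 in the control pool, a log2 ratio of 0.80 (0.43 to 1.26). Cxcr5, the receptor for Cxcl13, stood at 2.38 in the MKO pool and 2.30 in the control pool. Of 12 marginal zone and B1 genes, Zbtb20, Atxn1 and Sox5 were over the floor, and each of them was higher in another cluster. Of 11 atypical B cell genes, Zeb2 was over the floor, at 4.25 in the MKO pool and 5.28 in the control pool, and the MKO value was above the control value for 7 and below it for 3. Among the others, Fcrl5 stood at 1.1 in the MKO pool and 1.08 in the control pool, and Cd86, a costimulatory ligand, at 1.04 in the MKO pool and 1.32 in the control pool. The T-bet gene Tbx21 stood at 0.230 in the MKO pool and 0.143 in the control pool, and Itgax at 0 in the MKO pool and 0.0364 in the control pool.

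Of 26 plasma cell genes, 24 were in the table and 3 reached the floor, and of the 24 the MKO value was below the control value for 16 and above it for 8. Jchain (chr5:88519809-88527891) stood at 0.158 in the MKO pool (counting interval 0.0425 to 0.407, about 3.9 molecules) and 1.60 in the control pool (1.15 to 2.15, about 42.4 molecules). Txndc5, a disulfide isomerase of the secretory pathway, stood at 0.833 in the MKO pool and 2.19 in the control pool, a log2 ratio of -1.23 (-2.19 to -0.65), and was past 2-fold. The other members over the floor, Igkc and Iglc2, were not. Xbp1 stood at 0.298 in the MKO pool (0.124 to 0.602) and 0.835 in the control pool (0.524 to 1.26). Ighg2c was at 0 in the MKO pool, with an upper limit of 0.148, and at 0.425 in the control pool (0.214 to 0.754). Igha stood at 0.263 in the MKO pool and 0.325 in the control pool, and Ighg2b at 0.821 in the MKO pool and 0.80 in the control pool. Mzb1, a chaperone of immunoglobulin assembly, stood at 0.798 in the MKO pool and 0.612 in the control pool, and Edem2, Pdia4, Ighg3 and the 3 light chain genes on the list, Igkc, Iglc1 and Iglc2, were likewise above the control value. Genes for IgM and IgD made up 94.4% of heavy chain constant molecules in the MKO pool and 93.4% in the control pool. The table of means does not show how many nuclei these molecules came from.

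Genes of antigen presentation were mostly higher in the MKO pool. Of 13 MHC class II genes, 10 were over the floor, 8 of these were higher in the MKO pool, and their median log2 ratio was 0.51. Cd74, the invariant chain, stood at 33.0 in the MKO pool and 18.8 in the control pool, a log2 ratio of 0.81, beside a median ratio of 1.25 in the other clusters. H2-Eb1 stood at 10.9 in the MKO pool and 6.38 in the control pool, with a log2 ratio of 0.76 beside 0.64 elsewhere. Ciita, the master activator of these genes, stood at 2.02 in the MKO pool and 2.78 in the control pool. Ctsh, a lysosomal protease, stood at 3.17 in the MKO pool and 1.58 in the control pool, with a log2 ratio of 0.93 beside 0.19 elsewhere.

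Tgfbr1, the deleted gene, did not differ by 2-fold between the pools in cluster 8. It stood at 2.07 in the MKO pool (1.54 to 2.72) and 1.5 in the control pool (1.07 to 2.04). In macrophage cluster 2 it stood at 4.87 in the MKO pool and 13.5 in the control pool, a log2 ratio of -1.44. In bulk liver, Tgfbr1 had 560, 857 and 735 normalised reads in the MKO libraries and 737, 810 and 777 in the control libraries, and the groups overlapped. Its partner Tgfbr2 stood at 5.67 in the MKO pool and 6.32 in the control pool of cluster 8, above its level in any other cluster. Of the 23 genes of the TGF-beta pathway, 4 were over the floor (Tgfbr1, Tgfbr2, Smad4 and Smurf2). None was past 2-fold, near the share of all 1429 genes, of which 96.2% lay within 2-fold. The signal transducer Smad4 stood at 1.41 in the MKO pool and 2.03 in the control pool, and the receptor-degrading ligase Smurf2 at 2.16 in the MKO pool and 2.71 in the control pool.

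Many genes past 2-fold in cluster 8 had their highest value in another cluster. Of the 24 genes higher in the MKO pool, 11 had their highest value in another cluster, and the median log2 ratio of the 24 in the other 12 clusters was 0.65. Of the 30 lower in the MKO pool, 27 had their highest value in another cluster, 14 of them at least 8-fold above cluster 8, and the median log2 ratio of the 30 elsewhere was -0.38. The same shares over all 1429 genes were not counted, so these counts do not set the called genes apart. The 15 highest ratios with an official symbol belonged to Wfdc21, Ubb, Orm1, H2-Q7, Ms4a6c, Mup7, Apoa4, Clec2g, Tspan32, Clec2d, Hsd11b1, Il9r, Srsf7, Mup1 and Serpina1b. Among them Orm1, Mup7, Apoa4, Mup1 and Serpina1b encode proteins that hepatocytes secrete. Orm1, for example, stood at 1.95 in the MKO pool and 0.644 in the control pool, a log2 ratio of 1.37 beside a median of 1.42 elsewhere. H2-D1, a class I gene named after its values were seen, stood at 8.41 in the MKO pool and 3.98 in the control pool, a log2 ratio of 1.05 beside 1.17 elsewhere.

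The 15 lowest ratios belonged to Cdh18, Znrf3, Pde4d, Ghr, Sorbs2, Slc7a2, Chka, Arl15, Lars2, Slco1b2, Abcb4, Adk, Errfi1, Nfia and Evi5. Ghr, Slc7a2, Slco1b2 and Abcb4 encode a hormone receptor and transporters of hepatocytes. Cdh18 stood at 0.0623 in the MKO pool and 2.51 in the control pool, with a log2 ratio of -3.50 beside -1.83 elsewhere, and reached 20.4 in cluster 3 of the control pool. Ghr stood at 1.43 in the MKO pool and 5.69 in the control pool and reached 84.1 in cluster 1 of the control pool. Whether hepatocyte RNA outside nuclei contributed to these ratios was not tested; the summed hepatocyte markers of cluster 8 were 149 in the MKO pool and 106 in the control pool.

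**Figure D4:**
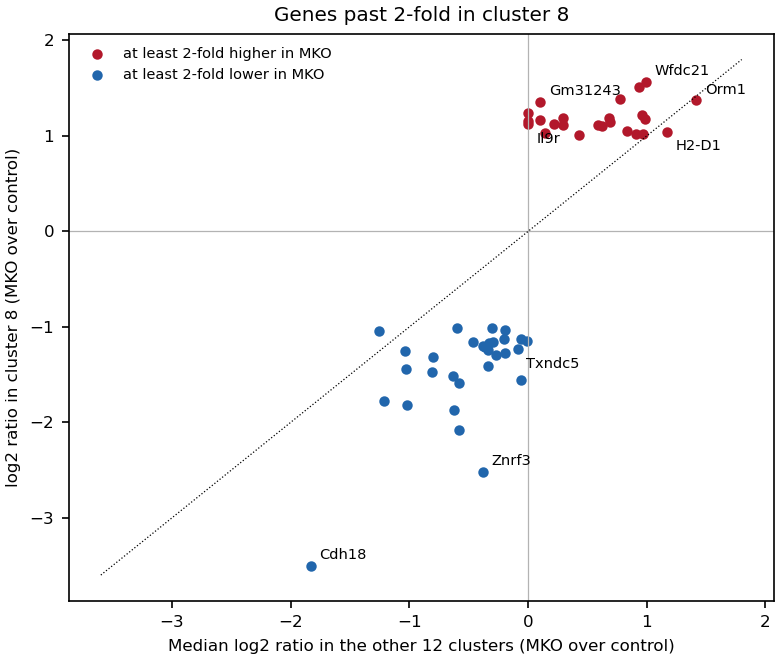
Log2 ratio of MKO over control in cluster 8 (vertical axis) against the median log2 ratio of the same gene in the other 12 clusters (horizontal axis) for the 54 genes past 2-fold; the dotted line marks equality. The median ratio elsewhere was 0.65 for the 24 genes higher in the MKO pool (red) and -0.38 for the 30 lower genes (blue).

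Il9r and Gm31243 were the 2 of the 24 higher genes that exceeded every other cluster in both pools. Il9r (chr11:32187541-32200279), the receptor for interleukin 9, stood at 1.97 in the MKO pool (1.46 to 2.60) and 0.811 in the control pool (0.505 to 1.23), and at most 0.151 in any other cluster. Its bulk values, given after they were seen, were 20.7, 16.3 and 16.4 normalised reads in the MKO libraries and 4.34, 0 and 3.94 in the control libraries. The bulk groups did not overlap, but the difference missed the threshold (log2 ratio 2.65 ± 0.68 SE, limma adjusted p = 0.0971). Gm31243, chosen after its values were seen, stood at 12.2 in the MKO pool (10.8 to 13.6) and 4.64 in the control pool (3.86 to 5.53), a log2 ratio of 1.36. It was also higher in the MKO pool in macrophage cluster 2, at 1.44 in the MKO pool and 0.435 in the control pool (log2 ratio 1.40), and in cluster 10, at 0.903 in the MKO pool and 0.166 in the control pool (log2 ratio 1.66). This RNA is annotated antisense to Bank1 and shares chr3:136053363-136167184 with it, a stretch of 113822 bases. Bank1 itself had a log2 ratio of -0.15. The strand setting of the counting is not stated, so reads of the pair may not be told apart. Tspan32, a tetraspanin of blood cells that reached 1.63 in T and NK cluster 7 of the MKO pool, stood at 2.66 in the MKO pool and 1.1 in the control pool, beside a median ratio of 0.00 elsewhere.

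The bulk libraries tested B cell genes across mice. Each held between 17448117 and 23986319 reads on 15283 genes, and values are reads divided by a size factor of the library. Tests used limma on log2(value + 1) for 15249 genes, of which 452 (2.96%) rose and 13 (0.0853%) fell in MKO liver at an adjusted p below 0.05. Libraries did not overlap for 10.4% of all genes in the higher direction and for 9.02% in the lower. In bulk, fewer cells of a type and less RNA per cell cannot be told apart. Of 68 B cell genes in 4 lists, 61 were measured, and 17 rose and none fell. Their median log2 ratio was 0.53, against -0.02 over all genes tested. The count of 17 was 11 without control replicate 2, 9 without control replicate 3, 8 without MKO replicate 2 and 7 without MKO replicate 3. For falls, limma and edgeR and DESeq2 on the recovered reads each called 0 of 61, and 3 fell at an unadjusted p below 0.05 in each of them. Ebf1, Lef1, Iglc1, Iglc3, Tnfrsf13c and Fcrla were not analysed here in bulk.

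The 17 genes that rose included Ikzf1, Ikzf3, Pou2f2, Klf2, Cd72, Syk, Lyn, Btk, Plcg2, Prkcb, Dok3, Ptprc, Ptpn6, Inpp5d, Cd37 and Fcrl5. Syk had 565, 579 and 594 normalised reads in the MKO libraries and 191, 124 and 124 in the control libraries, a log2 ratio of 2.01 ± 0.18 SE (limma adjusted p = 0.0031). Every MKO library lay above every control library for all 17. Fcrl5 rose most, with 70.8, 84.6 and 135 reads in the MKO libraries and 3.26, 4.20 and 0 in the control libraries (log2 ratio 5.07 ± 0.62 SE, limma adjusted p = 0.00502). In cluster 8, Fcrl5 stood at 1.1 in the MKO pool and 1.08 in the control pool, while it reached 5.71 in macrophage cluster 2 of the MKO pool. The 14 macrophage markers summed to between 15530 and 23972 normalised reads in the MKO libraries and between 5373 and 11878 in the control libraries. Of the 14, 9 rose, against 2.96% of all genes. The 14 T and NK markers measured summed to between 409 and 621 in MKO and between 153 and 258 in control livers, and none of either list was at 0 throughout. The part of these cells in the rise of the 17 genes was not tested.

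B cell genes with a high level per nucleus in cluster 8 relative to the other clusters were also read apart in bulk. The split, made after the values were seen, takes the 20 B cell genes whose lower cluster 8 value was at least 4-fold over every other cluster after 0.175 was added to each value, of which 18 were measured in bulk; the 17 genes that rose were all among the other 43. The split compares levels per nucleus and does not show that whole liver draws these transcripts from B cells alone: Bank1, one of the 18, stood at 6.48 in macrophage cluster 2 of the MKO pool, which held 1676 nuclei. None of the 18 passed the limma test in either direction, and the same held for edgeR, while DESeq2 called 2 higher. Over all genes limma called 2.96% higher and 0.0853% lower, so 0 of 18 is near those shares. The median log2 ratio of the 18 was 0.40, with 14 of them above 0. At an unadjusted p below 0.05, limma had 4 higher and 2 lower. Pax5 had 37.8, 27.5 and 35.6 normalised reads in the MKO libraries and 17.4, 38.8 and 21.7 in the control libraries. Cd79a had 56.1, 28.6 and 33.7 reads in the MKO libraries and 29.3, 33.6 and 25.6 in the control libraries. The groups overlapped for both genes, with MKO replicate 1 the highest library for Cd79a. Ighd had 74.5, 19.4 and 46.2 reads in the MKO libraries and 39.1, 50.4 and 39.4 in the control libraries, a log2 ratio of -0.07 ± 0.44 SE. The groups did not overlap for Cd79b, Cr2, Bank1, Cd40 and Fcrl1, which were higher in MKO liver, and for Bach2 and Igkc, which were lower. Over all genes the groups did not overlap for 10.4% in the higher direction and 9.02% in the lower. Cd79b had 73.2, 53.0 and 89.6 reads in the MKO libraries and 22.8, 42.0 and 10.8 in the control libraries (log2 ratio 1.64 ± 0.45 SE, limma adjusted p = 0.124). Bach2 had 170, 132 and 102 reads in the MKO libraries and 190, 231 and 171 in the control libraries (log2 ratio -0.57 ± 0.21 SE, limma adjusted p = 0.311).

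The switched antibody genes Ighg2c, Ighg2b and Igha fell in MKO liver. Of 26 plasma cell genes, 19 were measured, 3 fell and none rose, and the median log2 ratio was -0.27. Over all genes limma called 0.0853% lower. Libraries did not overlap for 6 of the 19 in the lower direction, against 9.02% of all genes. Ighg2c had 8.54, 6.12 and 3.85 normalised reads in the MKO libraries and 38, 87.1 and 73.9 in the control libraries (log2 ratio -3.20 ± 0.41 SE, limma adjusted p = 0.00547). Ighg2b had 11, 11.2 and 24.1 reads in the MKO libraries and 72.8, 191 and 78.8 in the control libraries (log2 ratio -2.76 ± 0.44 SE, limma adjusted p = 0.0129). Igha had 17.1, 9.18 and 11.6 reads in the MKO libraries and 34.7, 53.5 and 50.3 in the control libraries (log2 ratio -1.81 ± 0.33 SE, limma adjusted p = 0.0219). Ighg2c passed with any library left out. Ighg2b missed the threshold without MKO replicate 2 (limma adjusted p = 0.0683), and Igha missed it without control replicate 2, control replicate 3, MKO replicate 2 or MKO replicate 3 (limma adjusted p between 0.0858 and 0.114). Reads may be split uncertainly between Ighg2b and Ighg2c, which are similar in sequence. For rises, limma and edgeR called 0 of 19 and DESeq2 called 1, Prdm1, with 1 and 2 at an unadjusted p below 0.05 in limma and edgeR.

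Ighm, Igkc and Jchain were lower in every MKO library than in any control library and did not pass. For Iglc2 the groups overlapped, and its log2 ratio lay between -1.34 and -0.339 with 1 library left out. Ighm had 295, 137 and 220 normalised reads in the MKO libraries and 477, 2550 and 375 in the control libraries (limma adjusted p = 0.246). Jchain had 23.2, 5.10 and 17.3 reads in the MKO libraries and 54.3, 268 and 51.2 in the control libraries (limma adjusted p = 0.101). Control replicate 2 was far above the other control libraries for both, and for Igkc, and without it the log2 ratios were -1.03 for Ighm, -1.95 for Jchain and -1.16 for Igkc, against -1.89, -2.72 and -1.94 with it. The ratio of Ighm to Ighd within a library was 3.97, 7.05 and 4.75 in the MKO libraries and 12.2, 50.6 and 9.53 in the control libraries. In cluster 8 the ratio of Ighm to Ighd was 1.49 in the MKO pool and 1.43 in the control pool. It is a ratio of molecules in nuclei and the bulk ratio one of whole liver reads, so their levels cannot be compared. The ratio of Jchain to Cd79a was 0.413, 0.179 and 0.514 in the MKO libraries and 1.85, 7.97 and 2.0 in the control libraries. Neither ratio overlapped between the groups; both were chosen after the values were seen and were not tested.

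**Figure D5:**
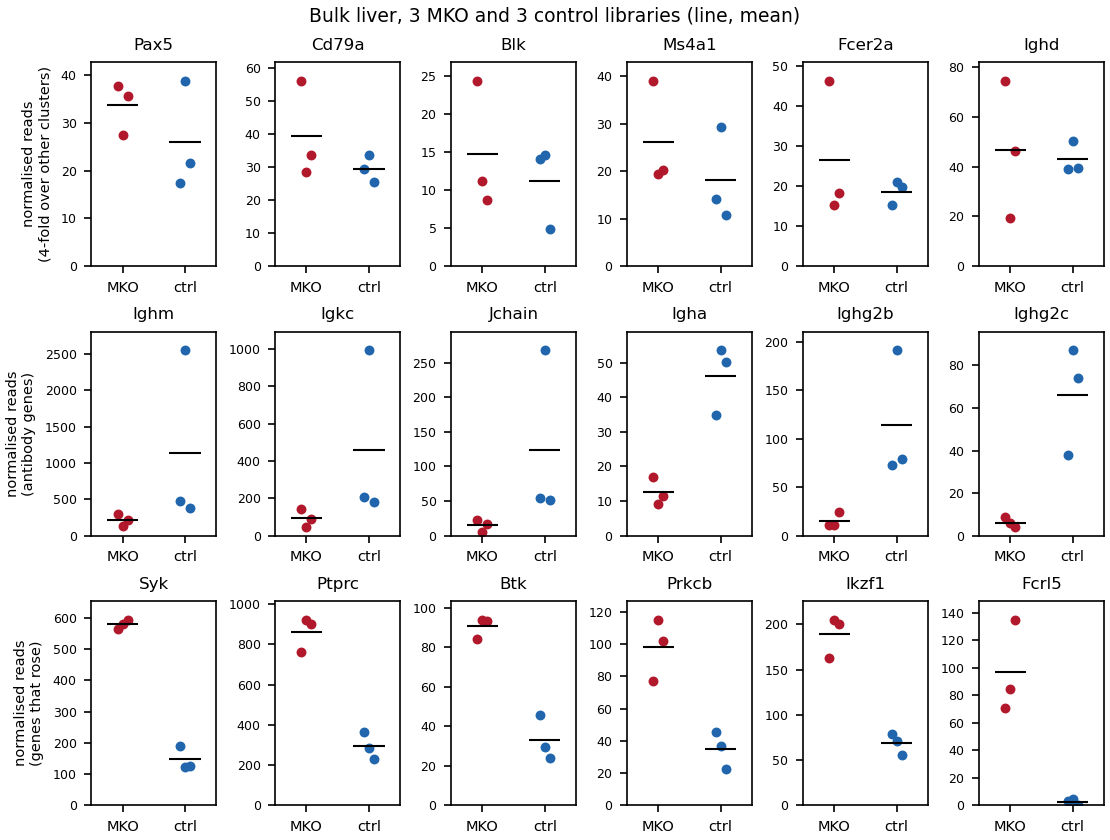
Normalised reads of 18 genes in the 3 MKO (left, red) and 3 control (right, blue) bulk livers, 1 point per library with the mean as a line: 6 genes at least 4-fold over the other clusters per nucleus in the top row, antibody genes in the middle row and 6 of the 17 genes that rose in the bottom row. The groups overlap in the top row, each MKO library lies below each control library in the middle row, and each MKO library lies above each control library in the bottom row. The top and middle rows are selections. Of the antibody genes, Ighd, drawn in the top row, and Iglc2, which is not drawn, overlapped between the groups. In the set from which the top row was drawn, the groups do not overlap for Cd79b, Cr2, Bank1, Cd40, Fcrl1, Bach2 and Igkc. Of these, Igkc alone is drawn, in the middle row.

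Few genes that act on B cells from outside were measured in bulk. Of 11 niche ligands, 7 were measured in bulk and none passed, with 1 higher at an unadjusted p below 0.05 in limma, edgeR and DESeq2 alike. Over all genes limma called 2.96% higher, so 0 of 7 is near that share. Cxcl13, which draws B cells into follicles, had 68.4, 104 and 495 normalised reads in the MKO libraries and 89.0, 29.4 and 4.93 in the control libraries. The groups overlapped and MKO replicate 3 stood far above the rest (log2 ratio 2.60 ± 1.0 SE, limma adjusted p = 0.327). Tnfsf13b, the survival factor BAFF, had 30.5, 17.3 and 32.7 reads in the MKO libraries and 8.69, 17.8 and 23.7 in the control libraries. Of 13 homing genes measured, the integrin chains Itgal and Itgb7 rose, beside 2.96% of all genes, and Cxcr5 overlapped between the groups. Both integrin chains were under the floor in cluster 8 and highest in T and NK cluster 7. There Itgal reached 4.54 in the control pool and Itgb7 2.65 in the MKO pool. Of the 15 highest ratio genes of cluster 8, 14 were measured in bulk and 1 rose, Ms4a6c, beside 2.96% of all genes. Ms4a6c had a log2 ratio of 1.93 ± 0.31 SE (limma adjusted p = 0.0129). It missed the threshold without control replicate 2, MKO replicate 2 or MKO replicate 3 (limma adjusted p between 0.0554 and 0.0697), and its highest value among the clusters was 3.37, in macrophage cluster 2 of the MKO pool.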

How the data were processed

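RNA was measured in 6 bulk livers (3 MKO, 3 control) and in nuclei of 1 pool of 3 livers per genotype. Seurat 4.0.1 and Cell Ranger, RSEM 1.3.3 with STAR, DESeq2, FastQC and the mm10 build are named in the submitters' processing notes, without settings. The deposited bulk signal is gene counts that the authors scaled by a size factor for each library. Multiplied back, 100% of values were whole reads within 0.01, and those reads served the edgeR and DESeq2 alternatives. On them edgeR called 468 genes higher and 14 lower, and DESeq2 634 and 50. The authors also deposited log2 fold changes and p-values, which were not used. The deposited nucleus signal is a mean over the nuclei of a cluster, scaled by the authors to 10000 per nucleus. No column of other samples was present.

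Bulk values with a mean of at least 1 were tested with limma 3.58.1 on log2(value + 1), with Benjamini-Hochberg adjustment at 0.05; edgeR 4.0.16 and DESeq2 1.42.0 were alternatives, with R 4.3.3 and Python 3.11.15. The spread behind each p-value is that among these 6 libraries. Nuclei per column were found as the number that made 20 low values, each shared by at least 3 genes, whole fractions within 0.01; molecule totals were read from nuclei seen alone, which tend to be the deeper ones. Gene values of cluster 8 have no test, since there is 1 pool per genotype. All intervals are at 95%. Those on shares of nuclei are exact, and those on values and ratios are approximate.

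The genes named are the 5 markers, the 20 leading genes, the 15 highest and 15 lowest ratios with an official-looking symbol, Tgfbr1 and members of the gene lists; in bulk, list members and ratio genes that passed limma. Il9r in bulk, H2-D1 and Gm31243 fall outside this rule and were chosen after their values were seen. The members and lists were chosen with earlier results of these data known. Doublets and empty droplets cannot be examined in a table of means. Scripts were tested on simulated data. Coordinates are from GENCODE release 21 for mouse, promoters from RefSeq. A few members of the lists are not reported here.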

Additional observations from a re-analysis of the deposited data

How the results depend on the processing

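In cluster 8, the 24 higher and 30 lower genes past 2-fold became 61 and 89 with the floor at the 80th percentile, 14 and 10 at the 95th, 346 and 380 with no floor, 1 and 5 with the whole floor as pseudocount, and 7 and 13 after subtracting the median ratio of the other 12 clusters. In that last setting the ratio of Orm1 turned to -0.0443. Of 210 values of 42 named ratios, 167 stayed within their interval, 42 moved and 1 turned. In bulk, leaving out 1 library gave between 7 and 16 B cell genes higher, against 17, and between 1 and 3 plasma cell genes lower, against 3. DESeq2 called 1 plasma cell gene higher, against 0. Same-numbered libraries showed no sign of pairing (correlations of 0.0557, -0.0300 and -0.109 over 15249 genes). Different-numbered libraries ran from -0.106 to 0.150. These correlations cannot exclude a shared litter, cage or batch. With the replicate block, 18 B cell genes were higher and 2 plasma cell genes lower, Igha missing at a limma adjusted p of 0.0527. Over 110 named genes, 1473 of 1540 bulk values kept direction and side of the threshold, 50 lost the call, 17 gained it and none turned. The cause of these shifts was not tested. Depth limits genes under the floor, about 43.6 molecules in the MKO pool and 46.4 in the control pool.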

Other observations

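The ratio of Igkc to Cd79a within a bulk library was 2.57, 1.71 and 2.63 in the MKO libraries and 7.0, 29.6 and 7.0 in the control libraries. Both genes were chosen after their values were seen, and the ratio was not tested. In cluster 8, Igkc and Cd79a were both within 2-fold between the pools.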
